A study of Oryza sativa with 8 samples.

Results

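GLP2, GER5 and GER8 are rice genes for germin-like proteins, and their transcripts were followed on 8 Affymetrix rice arrays. The members were taken by symbol or synonym from the gene tables: 3 genes read by 6 of the 57258 probe sets analysed, of 17905 genes listed. GLP2 (LOC4344846) has 2 probe sets, GER5 (LOC4345763) has 1 and GER8 (LOC4325743) has 3. They are 3 of the 9 genes with a germin-like name that have a probe set, and the other 6, GER1, GER2, GER3, GER4, GER6 and GER7, serve as their comparison. Family members known only by a locus number are missed, so counts of germin-like genes here do not cover the whole family. All 9 passed the minimum mean signal of 200 used here.

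Germin-like proteins are secreted, manganese-binding proteins of the cupin fold that sit in the plant cell wall. Some act as superoxide dismutases and some, the true germins of cereals, as oxalate oxidases, so the family is linked to hydrogen peroxide in the wall. In rice a cluster of germin-like genes on chromosome 8 is known for its part in resistance to fungal blast disease. In the order of the RefSeq gene table, 10 neighbouring genes on chromosome 8 run from GER3 through GER2, GER1 and GER6 to GLP2, and 6 of them carry a germin-like name. GER5, known also as OsGLP1, lies elsewhere on chromosome 8, GER8 and GER4 lie on chromosome 1, and GER7 on chromosome 3. A second gene of the cluster, LOC112935981, next to LOC4344846, also carries the synonym GLP2 and has no probe set listed, and which of the neighbouring copies each GLP2 probe set reads cannot be told here.

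Each array holds 1 sample of wild type (WT) or of the mutant labelled MHZ7 (here mhz7), from root or shoot, in air or in ethylene, a gaseous plant hormone. Seeds germinated in the dark for 2 days at 37 °C, and seedlings aged 3 days then stayed in air or received 10 ppm ethylene for 8 h at 28 °C in the dark. The gene table gives MHZ7 as another name of EIN2, a membrane protein that relays ethylene perception to the nucleus. No source used here gives the lesion. EIN2 in roots read 1649 in WT and 2792 in mhz7 in air, and 1064 and 2462 in ethylene. In shoots it read 859 in WT and 1532 in mhz7 in air, and 747 and 1574 in ethylene. The mhz7 signal was the larger in every pair, and with the lesion unknown its level does not test the label.

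With 1 array per condition there are no replicates, so no difference between 2 arrays has a measured error. The words rose, fell, higher and lower are used of a gene where 2 arrays differed at least 2-fold and the higher signal reached 200, or where a limma test named beside the value was passed. Signals under 100 were set to 100, and a fold against such a signal is given as "at least". All values of the 3 genes were known from earlier work on these arrays when they were chosen, so their levels are a description and carry no test.

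The markers of each organ followed the labels. The summed signal of 5 shoot markers (RBCS, CAB2R, RCABP89, RCABP69 and LTP2-B) was 86495 to 112452 on the shoot arrays and 457 to 3381 on the root arrays, and that of 5 root markers (NRT2.2, TIP2-1, NAS1, NAS2 and osysl15) was 68922 to 110332 in roots and 929 to 5046 in shoots. No marker was at 0. Actin control signal at the 3′ end over that at the 5′ end, a ratio that increases as RNA is degraded, was available from a pair of control sets. By one it was 6.34 to 9.55 on 7 arrays and 13.5 in mhz7 shoots in ethylene, and by the other 18.3 to 28.1 and 35.6. For WT shoots the ratios were 6.34 and 18.3 in air, and 8.26 and 28.1 in ethylene. In these whole organs, fewer cells of a type and less RNA per cell cannot be told apart.

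**Figure D1:**
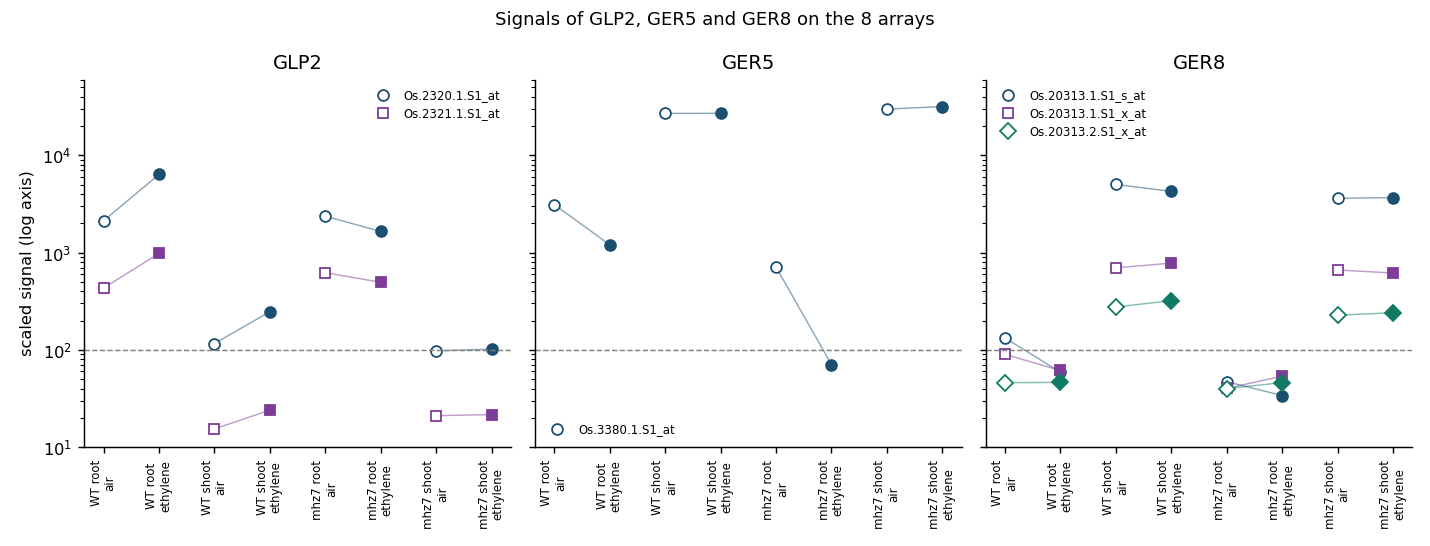
Scaled signal (log axis) of every probe set of GLP2, GER5 and GER8 on the 8 arrays, 1 point per array, open in air and filled in ethylene, with a thin line joining air to ethylene and a dashed line at the floor of 100. GLP2 is high in roots and highest in WT roots in ethylene (6368), while GER5 and GER8 are high in shoots, with root signals that differ between arrays for GER5 (70.5 to 3121).

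GLP2 was a root transcript that rose with ethylene in WT and not in mhz7. Its brighter probe set read 2130.2 in air-treated and 6368 in ethylene-treated WT roots, against 2365 and 1654 in mhz7 roots. The WT root in ethylene thus stood apart from the other 3 root arrays, which lay within 1.43-fold of each other. The ethylene change was a 2.99-fold rise in WT roots (1.58 on the log2 scale) and -0.52 in mhz7 roots. The mhz7 change minus the WT change was -2.10, a difference that was not tested.

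The second GLP2 probe set gave the same order in WT roots. It read 432 in air and 982 in ethylene in WT roots, a 2.27-fold rise, and 622 and 495 in mhz7 roots, a log2 difference of -0.33. Both GLP2 probe sets were thus highest in WT roots in ethylene. Between genotypes, GLP2 in ethylene-treated roots stood 3.85-fold lower in mhz7 by the brighter probe set, and the other gave 1.98-fold in the same direction, just under the 2-fold limit. In air the log2 difference, mhz7 minus WT, was 0.15 by the brighter probe set and 0.52 by the other, both within the 2-fold limit.

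In shoots GLP2 was near the floor. The brighter probe set read 116 in WT shoots in air, 247 in ethylene, and 97.6 and 102 in mhz7 shoots, while the other read 15.4 to 24.0. By the rule used here the brighter probe set rose 2.13-fold with ethylene in WT shoots and stood 2.43-fold lower in mhz7 than in WT shoots in ethylene. Neither call was made with a floor of 200, where the values were 0.30 and -0.30, nor with both probe sets averaged, where they were 0.54 and -0.64. As a share of the root signal, shoot GLP2 was 5.46% (WT, air), 3.88% (WT, ethylene), at most 4.23% (mhz7, air, under the floor) and 6.15% (mhz7, ethylene).

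Root-abundant transcripts, chosen by a 10-fold cutoff on the other genotype, had low shares on the shoot arrays too. That cutoff itself favours low shares, so their likeness to the share of GLP2 is in part set by the choice. Probe sets at least 10-fold brighter in roots of the other genotype, with root signals of at least 2000 there, had a median share of 4.96% in WT shoots in air (118 probe sets), with 4.27% after ethylene. The medians for mhz7 shoots (128 probe sets) were 5.93% and 4.38%. In that order, 17, 46, 25 and 61 of these probe sets had a shoot signal under the floor, so the medians are upper bounds. Without the floor they were 4.60%, 3.43%, 5.49% and 3.16%. The median ethylene change of the set was -0.33 in WT shoots, where that of GLP2 was 1.09. The floor brings such changes toward 0. Without it the set median was -0.72 in WT shoots, and 36.4% of the set was at least 2-fold dimmer in ethylene. The part of root RNA in the shoot signal of GLP2 was not tested. Set against roots, GLP2 was 18.3-fold lower in WT shoots in air, 25.8-fold lower in WT shoots in ethylene, at least 23.7-fold lower in mhz7 shoots in air and 16.3-fold lower in mhz7 shoots in ethylene.

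GER5 was a shoot transcript whose root signal fell with ethylene and stood lower in mhz7. It read 27021 in WT shoots in air, 27083 in WT shoots in ethylene, 29948 in mhz7 shoots in air and 31760 in mhz7 shoots in ethylene (31759.7 before rounding), brighter than about 99.9% of the probe sets of each shoot array. The shoot arrays thus lay within 1.18-fold of each other, and their log2 differences for gas and genotype ran from 0.00 to 0.23. Near the top of an array's range a change can be read as smaller than it is.

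In roots the 4 arrays were far apart. GER5 read 3121 in WT in air and 1203 in WT in ethylene. The mhz7 roots gave 709 in air and, under the floor, 70.5 with ethylene. It fell 2.60-fold with ethylene in WT roots and at least 7.09-fold in mhz7 roots. Against WT, mhz7 roots stood 4.40-fold lower in air, and in ethylene the gap was at least 12.03-fold. Shoots stood 8.66-fold above roots in WT in air, 22.5-fold in WT in ethylene, 42.2-fold in mhz7 in air and at least 318-fold in mhz7 in ethylene.

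The root arrays stood in the same order by their shoot markers as by GER5. The summed signal of the 5 shoot markers was 3381 for WT in air, 1111 for WT in ethylene, 867 for mhz7 in air and 457 for mhz7 in ethylene. As a share of the shoot signal, GER5 in roots reached 11.6% and 4.44% for WT, air first, and 2.37% and at most 0.315% for mhz7. Probe sets at least 10-fold brighter in shoots of the other genotype, with shoot signals of at least 2000 there, had medians of 4.94% and 4.13% for WT roots (453 probe sets), and 3.16% and 2.97% for mhz7 roots (385 probe sets). Of these, 59, 115, 137 and 199 had a root signal under the floor and so only an upper bound, which makes each of these medians an upper bound as well. Without the floor the medians were 4.74%, 3.61%, 2.66% and 2.23%. As for the root-abundant set, the 10-fold cutoff itself favours low shares.

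GER5 thus lay above the upper quartile of that set, 7.38%, in WT roots in air, where 26 of the 453 probe sets were measured at a higher share. In mhz7 roots in ethylene, 186 of the 385 were measured above the bound of GER5, and the other 199 were under the floor, as GER5 was. That bound is the floor divided by a very bright shoot signal, so nearly any member measured over the floor lies above it. The count therefore cannot place GER5 within the set on that array. The ethylene change of GER5 in WT roots was -1.38, where the set had a median of -0.30. In mhz7 roots the change of GER5, a bound, was -2.83, and the set had a median of -0.03. The floor brings changes of dim set members toward 0. Without it the set medians were -0.47 in WT roots and -0.29 in mhz7 roots. Of the set, 20.5% and 17.4% were then at least 2-fold dimmer in ethylene. Without the floor GER5 stood at -1.38 and -3.33, and 35 of the 453 and 3 of the 385 had a deeper fall. The part of shoot RNA in the root signal of GER5 was not tested.

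**Figure D2:**
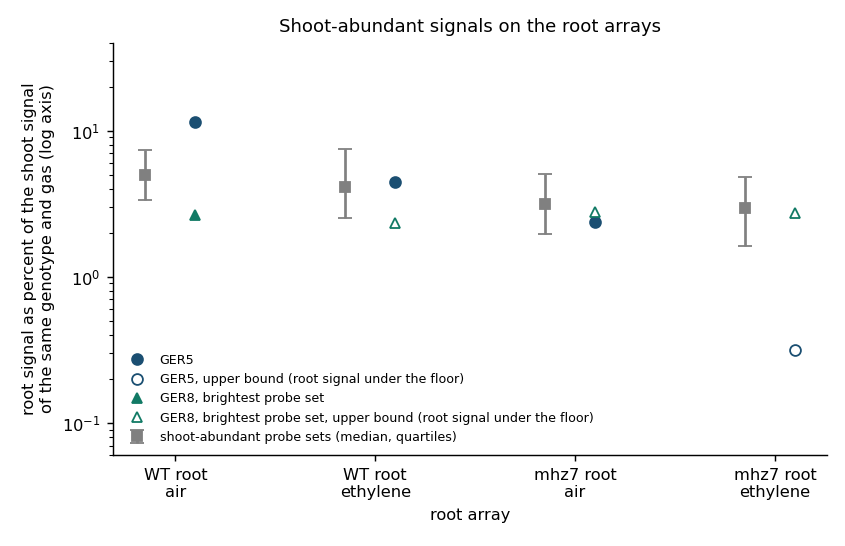
Root signal as a percent of the shoot signal of the same genotype and gas (log axis) on the 4 root arrays, for GER5 (circles), the brightest GER8 probe set (triangles) and shoot-abundant probe sets chosen on the other genotype (squares, median with bars from lower to upper quartile). Root signals under 100 were set to 100, and open symbols are upper bounds. The squares include probe sets at the floor, so they are upper bounds too. GER5 goes from 11.6% in WT roots in air to at most 0.315% in mhz7 roots in ethylene, and GER8 by this probe set was measured in WT roots in air alone, at 2.64%.

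GER8 was a shoot transcript whose shoot signal kept within 2-fold across gas and genotype. Its brightest probe set, with the ending _s_at, read 5026 in WT shoots in air and 4263 in ethylene, and 3619 and 3679 in mhz7 shoots. In roots it read 133 and 58.8 in WT and 47.0 and 33.9 in mhz7, air first. All 4 shoot arrays were high, and 3 of the 4 root arrays were under the floor of 100.

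GER8 met the 2-fold rule in none of the 8 comparisons of gas or genotype. Those in roots could not meet it, because every GER8 root signal was under the minimum that the rule asks of the higher signal. The rule thus gives a reading of GER8 for gas and genotype in shoots only. In shoots its log2 differences were -0.24 and 0.02 with ethylene in WT and mhz7, and -0.47 and -0.21 for mhz7 against WT in air and ethylene. Shoots stood 37.9-fold above roots in WT in air and at least 42.6-fold, 36.2-fold and 36.8-fold in WT in ethylene, mhz7 in air and mhz7 in ethylene. By this probe set its root signal was 2.64% of the shoot signal in WT in air, and at most 2.35%, 2.76% and 2.72% in WT in ethylene, mhz7 in air and mhz7 in ethylene.

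The other GER8 probe sets were shoot-high too. One, ending in _x_at, read 616.5 to 779.8 in shoots and 40.2 to 89.8 in roots, and the other, with the same ending, 227 to 320.2 in shoots and 39.9 to 46.2 in roots. All their root signals were under the floor, which leaves shoots at least 6.17-fold and at least 2.27-fold above roots at the lowest and gives no order among the roots. With ethylene in WT shoots these probe sets gave 0.16 and 0.21, where the brightest gave -0.24, all within the 2-fold limit. Probe sets with the endings _s_at and _x_at hold probes that match or may cross-react with other transcripts, so reads of related genes in these signals cannot be told apart.

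Of the 9 listed germin-like genes, 2 changed with ethylene in WT roots, GLP2 up and GER5 down, where 1.76% of 13839 genes changed (0.867% up, 0.889% down). In WT shoots 2 of 9 changed, GLP2 up and GER1 down, against 1.75% of genes (0.491% up, 1.26% down). In mhz7 roots 1 of 9 did, GER5, which was lower, against 1.01% of genes (0.275% up, 0.737% down). In mhz7 shoots none of the 9 changed, against 0.455% of genes (0.065% up, 0.39% down). Since the 3 genes were picked with these changes known, their part of the counts is a description. The median log2 change of the 9 was -0.16, 0.00, -0.16 and -0.11 in WT roots, WT shoots, mhz7 roots and mhz7 shoots, and that of all genes lay between 0 and 0.03 in size. Of the 6 other genes, none changed with ethylene in WT roots, mhz7 roots or mhz7 shoots, and 1, GER1, fell in WT shoots.

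GER1 and GER2, neighbours in the chromosome 8 cluster, were bright in both organs. GER1 read 27023 and 22387 in WT roots and 25164 and 12223 in WT shoots, air first, a 2.06-fold fall in shoots. In mhz7 it read 17734 and 20243 in roots and 32419 and 28412 in shoots. WT shoots in ethylene gave the lowest GER1 signal of the 8, and GER1 stood 2.32-fold higher in mhz7 than in WT shoots in ethylene. GER2 was lowest on the same array, at 17228 against 22870.3 to 32121 on the others, with a log2 change of -0.59 that did not reach 2-fold. Both lie above 99% of the probe sets on each array.

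GER7, on chromosome 3, resembled GLP2 in ethylene though not across organs. It read 619.8 and then 1239 in WT roots, air first, and 993 and 1466 in WT shoots. The mhz7 roots gave 613 and 427, and the mhz7 shoots 887 and 734. The WT ethylene arrays were its 2 highest. The ethylene change in WT roots, 1.999-fold, fell just short of the 2-fold limit and passed it with 1 common factor for all arrays or with scaling on the medians. In ethylene-treated roots GER7 stood 2.90-fold lower in mhz7, and in ethylene-treated shoots the 1.996-fold gap in the same direction was again just under the limit, and passed it with those scalings and with quantile normalization. The mhz7 ethylene change minus the WT change was -1.52 in roots and -0.84 in shoots, and neither was tested.

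For mhz7 against WT, 2 of 9 germin-like genes changed in roots in air, GER6 2.11-fold higher and GER5 lower, against 3.23% of all genes (1.6% higher, 1.63% lower). In roots in ethylene 3 of 9 changed, GLP2, GER5 and GER7, all lower, against 7.12% of genes (3.04% higher, 4.08% lower). None of the 9 changed in shoots in air, against 2.67% of genes (1.6% higher, 1.08% lower). In shoots in ethylene 2 did, GER1 higher and GLP2 lower, against 4.76% of genes (2.78% higher, 1.98% lower). The part of the 3 members in these counts is again a description, as their values were known. Among the other 6 genes, 1, 1, 0 and 1 changed in the same order of comparisons. These comparisons share arrays with those of gas: the WT ethylene arrays on which GLP2 and GER7 were high and GER1 was low are also the controls here. GER6 read 1950.4 and 1868 in WT roots and 4123 and 2747 in mhz7 roots, air first, so both mhz7 root arrays were above both WT ones.

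**Figure D3:**
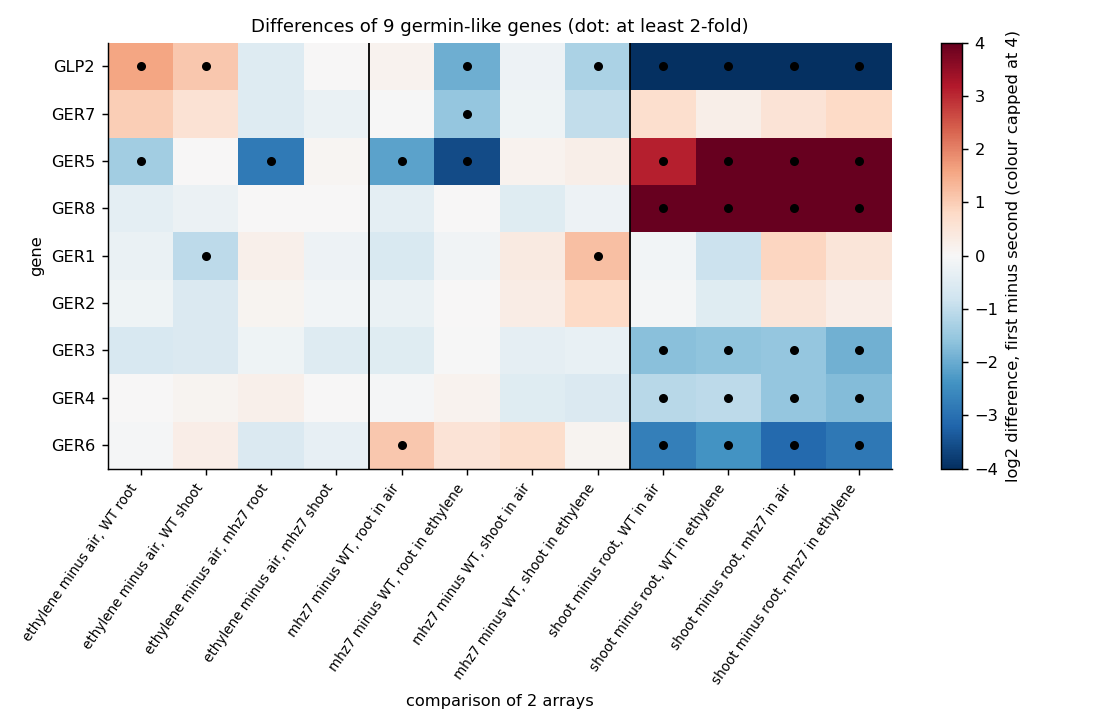
Log2 difference, first group minus second, of 9 germin-like genes (rows, 1 probe set each) in 12 comparisons of 2 arrays (columns), in colour capped at 4 in size, with a dot where the difference met the 2-fold rule. GLP2 and GER7 are both positive for ethylene in WT (1.58 and 0.999 in roots) and negative for mhz7 against WT in ethylene (-1.94 and -1.54 in roots), and 6 genes carry dots in every column of shoot against root.

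Root and shoot parted the listed germin-like genes most. In each of the 4 comparisons of shoot against root, 6 of 9 genes met the 2-fold rule, against 25.9% of all genes in WT in air, 27.2% in WT in ethylene, 27.2% in mhz7 in air and 28.6% in mhz7 in ethylene. The same genes met it each time: GER5 and GER8 were higher in shoots, and GLP2, GER3, GER4 and GER6 were lower. The 3 members were picked with these values known, so their part of the counts is a description. Among the other 6 genes, 3 met the rule each time, all lower in shoots. Of all genes, 14.8%, 13.9%, 14.4% and 14.7% were higher in shoots and 11.1%, 13.3%, 12.9% and 13.9% lower, in the same order of comparisons. The median difference over all genes was -0.20 to -0.14 in these comparisons, and that of the 9 genes -0.10, -0.87, 0.49 and 0.26, which differ in sign as members lie on both sides.

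For the other 6 genes, the differences were tested with limma over the 4 pairs of arrays that share the other factors, with Benjamini-Hochberg adjustment over 21444 probe sets. The 4 pairs are different conditions with 1 array on each side. SE and p thus measure how alike a difference was across conditions, not a spread among replicates. GER6 was lower in shoots, with a log2 difference of -2.77 (SE 0.124, adjusted p = 3.4e-05), GER3 -1.69 (SE 0.0822, adjusted p = 4.5e-05) and GER4 -1.36 (SE 0.143, adjusted p = 0.000713), each in 4 of 4 pairs. GER7 was higher in shoots by 0.56 (SE 0.105, adjusted p = 0.0059), also in 4 of 4. GER1 and GER2 did not pass (adjusted p = 0.788 and 0.819) and had positive differences in 2 of 4 pairs each. Of all probe sets 67.4% passed this test, 25.9% higher and 41.5% lower in shoots.

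The same limma fits called none of the 6 genes for gas or for genotype. For ethylene against air the lowest adjusted p was 0.545, that of GER3 (-0.48, negative in 4 of 4 pairs, unadjusted p = 0.00267), which was the only gene of the 6 under an unadjusted p of 0.05. No probe set passed over the whole array (0%), and 1704 had an unadjusted p under 0.05. For mhz7 against WT the lowest adjusted p was 0.119, that of GER6 (0.61, positive in 4 of 4 pairs), with 2 of 6 genes under 0.05 unadjusted, where 1.45% of all probe sets passed (0.886% higher, 0.56% lower). A fit over 4 pairs averages the genotypes for gas, and GER7, with changes of opposite sign in WT and mhz7, gave 0.19 (SE 0.266, adjusted p = 0.863).

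**Figure D4:**
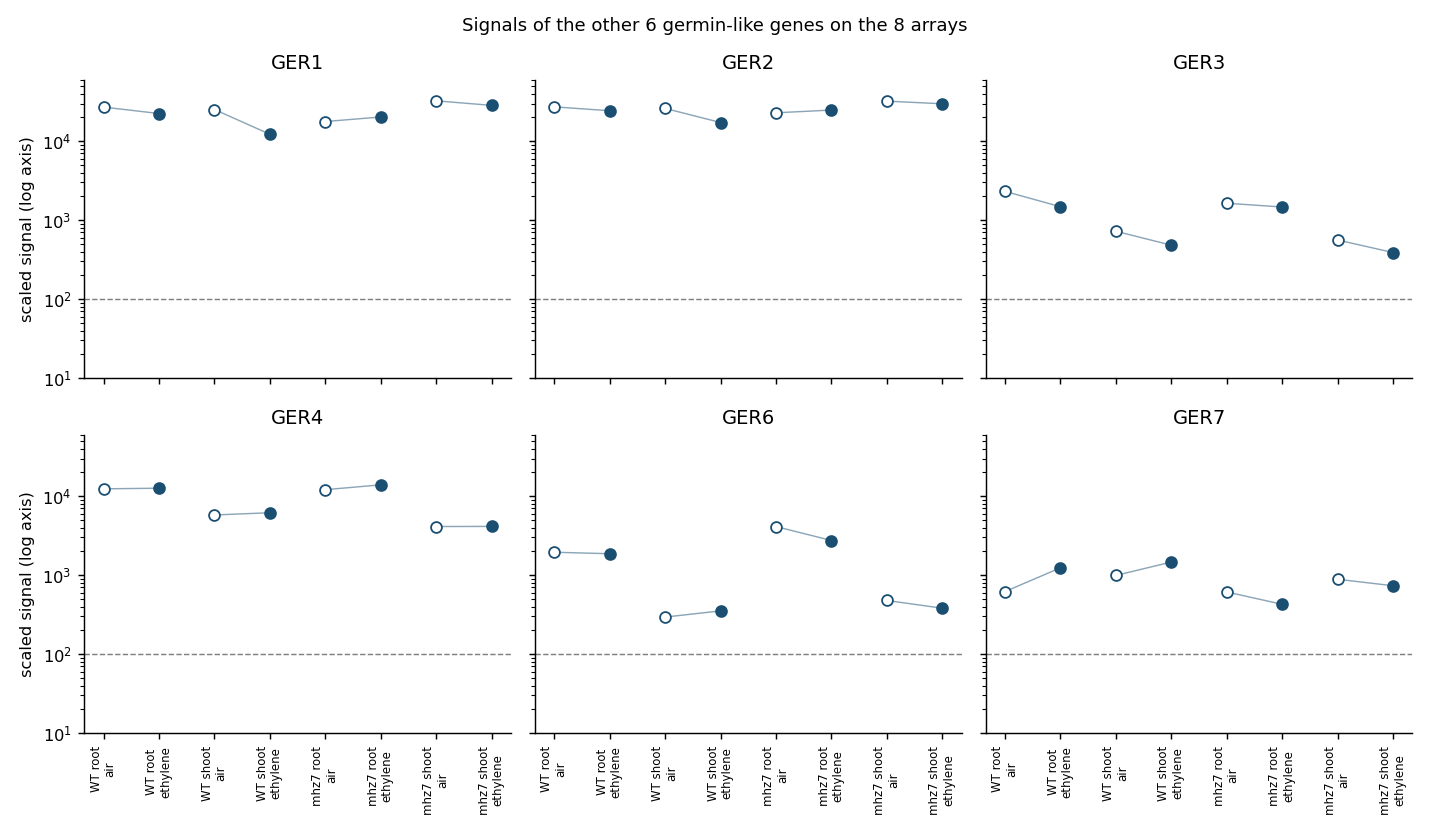
Scaled signal (log axis) of the other 6 germin-like genes on the 8 arrays, 1 point per array, open in air and filled in ethylene, with a thin line joining air to ethylene and a dashed line at the floor of 100. GER3, GER4 and GER6 are higher in roots than in shoots, GER1 and GER2 are bright on all arrays and lowest in WT shoots in ethylene, and GER7 is highest on the WT ethylene arrays.

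Enzymes that make or remove hydrogen peroxide and superoxide inside and outside the cell were taken as a second list. It holds 14 measured genes found by symbol or synonym, among them the NADPH oxidase gene OsrbohB, catalases, superoxide dismutases and ascorbate peroxidases. Such enzymes known only by a locus number are missed. None of the 14 met the 2-fold rule in any of the 8 comparisons of gas or genotype, and their log2 differences ran from -0.35 to 0.63, where 11.1% of all genes met it in at least 1. Between organs 4, 5, 3 and 4 of the 14 met it, in the order WT air, WT ethylene, mhz7 air, mhz7 ethylene, with list medians of -0.14, -0.17, -0.02 and -0.06. The shares of all genes were 25.9%, 27.2%, 27.2% and 28.6%, so these counts are near the background. The chloroplast ascorbate peroxidase gene APX8 was at least 10.1-fold to 13.2-fold higher in shoots, and the plastid superoxide dismutase gene sodCp was 2.38-fold to 2.61-fold higher. APX7, for another plastid ascorbate peroxidase, was 2.77-fold to 3.55-fold lower in shoots. In the limma fit 12 of 14 passed for shoot against root, 5 higher and 7 lower, and none for gas or genotype (lowest adjusted p = 0.559 and 0.191, with 1 and 3 genes under 0.05 unadjusted). Of all probe sets 67.4% passed for shoot against root, 0% for gas and 1.45% for genotype.

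The genes most like each member were named among 2025 others with a symbol, by Pearson r of log2 signal over the 8 arrays, which share organs, gases and genotypes. Over all 8 arrays GLP2 was most like PSS1 (r = 0.997), GK1 (0.990) and AGO1A (0.989), the gene of an argonaute protein of small RNA silencing, and 172 genes had r over 0.95. Each was brighter in roots than in shoots, GK1 and AGO1A by less than 2-fold (AGO1A 2675 to 3121 against 2074 to 2171). With each organ's mean subtracted, GER7 came first (r = 0.970), followed by OsTHT2 (0.968) and PSS1 (0.966), and 4 genes had r over 0.95. OsTHT2 read 491 and 839.8 in WT roots, air first, and 469 and 455 in mhz7 roots, and PSS1 read 663 and 917 in WT roots and 602 and 589 in mhz7 roots. On all of these genes the WT root in ethylene was the highest of the root arrays. They were picked for likeness to GLP2 on these same arrays, so this is a description of that choice.

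GER5 was most like Cyanase (r = 0.988), OsCASPL2A1 (0.986) and PETE (0.980), the gene of the photosynthetic electron carrier plastocyanin. With organ means subtracted it was most like the phosphate transporter gene OsPht1;2 (0.990), OsCASPL2A1 (0.989) and PETE (0.986). PETE read 25056 to 28125 in shoots, and in roots 1128 and 503 in WT and 335 and 129 in mhz7, the same order of the root arrays as GER5. Its choice by likeness to GER5 on these same arrays makes this shared order a description. OsPht1;2, by contrast, was bright in roots, at 1618, 1399, 1104 and 712 in the same order, and under 100 in shoots.

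GER8 was most like KCS20, GOS5 and Osnph1b (r = 0.999 for each), and 273 genes had r over 0.95. With organ means subtracted it was most like PORA (0.951), the gene of a light-dependent enzyme of chlorophyll synthesis that is abundant in dark-grown shoots, OsPIP1;3 (0.933) and OSA15 (0.921). PORA read 10310.1 and 7630.3 in WT shoots, air first, and 6320 and 4724 in mhz7 shoots (6319.8 in air). GER8 was highest in WT shoots in air by its brightest probe set, on which the likeness rests, and in WT shoots in ethylene by the other probe sets (779.8 against 697.7 in air, and 320.2 against 276). Among the germin-like genes, GER5 and GER8 correlated at r = 0.912 over the 8 arrays and at 0.422 with organ means subtracted.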

How the data were processed

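The intensity values were deposited by the authors as 1 linear signal per probe set and array, and MAS5 is named in the submitters' processing notes; no source used here gives its scaling target. Per the labels' protocols, biotinylated cRNA was made from 5 µg of total RNA per sample. Deposited medians were 42.8 to 44.5. Of 57381 probe sets, 123 controls were set aside. Factors of 2.00 to 2.10 gave every array a mean of 500, trimmed by 2% at either end. Values below the floor of 100 (51.5 to 53.1% of probe sets) were set to 100 before log2 was taken, which limits what dim transcripts can show. Precision is limited by having 1 array per condition.

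By the array's gene annotation, 22436 probe sets have 1 gene, 95 have several and 34727 have none. Symbols and gene order came from RefSeq's table of the assembly ASM3414082v1, without coordinates. The brightest probe set with a mean of at least 200 stands for a gene (13839 genes). The germin-like list was defined by symbol or synonym (GLP or GER with a number), 10 genes of which 9 have a probe set, and the hydrogen peroxide list holds 15, of which 14 have one. Marker lists held 8 shoot and 6 root names, of which 5 and 5 were found. The members and lists were chosen with earlier results of these data known. Promoter and protein sequences were not analysed here.

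Differences over 4 pairs were fitted in R 4.3.3 by limma 3.58.1, the pair as a block (3 residual degrees of freedom) and a threshold of 0.05 after Benjamini-Hochberg adjustment. Pairs come from the design, not from sample numbers. In a test on simulated data for 21444 probe sets, the limma step recovered 87 of 100 changes of log2 size 1 and 98 of size 2 for gas, 75 and 92 for genotype, and 80 and 92 for tissue, with 3, 10 and 5 false calls. How many differences this step finds on the measured arrays was not tested. There, ethylene differences can vary between pairs, as for GER7 (0.999 in WT roots and -0.52 in mhz7 roots), and signals under 100 were set to 100. Other steps used Python 3.11.15, numpy 2.4.6, pandas 2.3.3 and scipy 1.17.1. Named genes are the members, other germin-like and peroxide genes that met the 2-fold rule (up to 4 and 2 per comparison), the brightest 3 germin-like genes, and the 3 genes most like each member by each measure. Alternatives were other scalings, floors, minimum signals and thresholds, averaged probe sets, no block, and leaving out each pair.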

Additional observations from a re-analysis of the deposited data

Results flagged for a closer look

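Several values stood out because the same contrast had opposite signs in 2 groups, each with 1 array on either side. In each pair 1 of the values was within the 2-fold limit and so shows no direction of its own, and none of these differences was tested. On the log2 scale, the ethylene change of GLP2 was 1.58 in WT roots and -0.52 in mhz7 roots. Between genotypes it stood at 0.15 in roots in air and -1.94 in roots in ethylene. GER1 stood at -0.15 for mhz7 against WT in roots in ethylene and at 1.22 in shoots in ethylene.

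For ethylene against air GER5 stood at -1.38 in WT roots and 0.00 in WT shoots, and in mhz7 it stood at -2.83 in roots and 0.08 in shoots. For mhz7 against WT it stood at -2.14 in roots and 0.15 in shoots in air, and at -3.59 and 0.23 in ethylene. The GER5 shoot values are close to 0, so these contrasts rest on the root arrays, on which the summed shoot markers also differed (457 to 3381).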

How the results depend on the processing

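Over all alternatives, 232 recomputed differences of the members kept their side of the 2-fold rule and 8 no longer met it. Part of the 232 could not change. Differences within 2-fold stay within the limit at 3-fold, and GER8 in roots is too dim to meet the rule for gas or genotype. Of the 232, 4 changed sign: GER5 and GER8 for ethylene in WT shoots, and GER8 in mhz7 shoots. All 4 were within the limit before and after, and at most 0.0458 in size when recomputed. With its probe sets averaged, GER8 in WT shoots went from -0.24 to 0.0458. At 3-fold in place of 2-fold, the values 1.58 (GLP2, ethylene, WT roots), 1.09 (GLP2, ethylene, WT shoots), -1.28 (GLP2, mhz7 against WT, shoots in ethylene) and -1.38 (GER5, ethylene, WT roots) no longer met the rule. With a floor of 200 both shoot values of GLP2 fell short (0.30 and -0.30), as they did with its probe sets averaged (0.54 and -0.64), since 1 or both probe sets lie near the floor there. GER5 in mhz7 roots, a bound, went from -3.33 to -1.83 with floors of 50 and 200.

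Of the recounts of germin-like genes, 88 stayed within 1.5 times and 8 did not. At 3-fold the count went from 2 to 0 for ethylene in WT roots, from 2 to 0 in WT shoots, from 2 to 1 for mhz7 against WT in roots in air, and from 2 to 0 in shoots in ethylene. With a floor of 200, or probe sets averaged, it went from 2 to 1 for ethylene in WT shoots and for mhz7 against WT in shoots in ethylene. With median scaling, which moved the median gene in WT roots from 0.03 to 0.14, the WT root count was 3, as it was with 1 common factor. For mhz7 against WT in shoots in ethylene the count was 3 with both of these and with quantile normalization. GER7 was the added gene each time. Without the floor, an alternative added after seeing the data, the median shares of shoot-abundant probe sets on the root arrays were 2.23 to 4.74%. Those of root-abundant probe sets on the shoot arrays were 3.16 to 5.49%.

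The limma counts over the other 6 genes were 0 for gas, 0 for genotype and 3 to 4 for tissue under every alternative, 4 to 4 without each pair and 3 without the block. No paired analysis by replicate number was possible because each group has 1 array. Over all probe sets, genotype calls went from 310 to 1008 without the block, to 173 with a floor of 200, to 2 without a minimum signal, and to between 5 and 49 without each pair.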
